A study of Mus musculus with 12 samples.

Results

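Expression of 10 genes of cytosolic nucleic acid sensing was followed in macrophages exposed to interferon-β (IFNβ). They were Rigi (formerly Ddx58), Ifih1, Dhx58, Ddx60, Cgas (formerly Mb21d1), Zbp1, Eif2ak2, Adar, Mavs and Sting1 (formerly Tmem173), taken by symbol as 10 of the 56748 genes in the deposited count matrix. All 10 passed the filter on low counts that left 15033 genes for testing, and their lowest count in any library was 126, for Zbp1 in untreated replicate 2. The macrophages were bone marrow-derived macrophages (BMDM) of C57BL/6J mice, which the methods describe as female. They were differentiated in M-CSF (20 ng/mL), and IL4 (10 ng/mL, 48 hours) brought them to an M2-like state. Bulk RNA sequencing followed after 72 hours in 1 of 4 conditions, with libraries from 3 mice in each. Whether a mouse served more than 1 condition was not given in the sources used here.

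Untreated BMDM received plain BMDM medium. BMDM with rIFNβ received recombinant IFNβ at 1500 pg/mL and no supernatant. BMDM with Ifnb1eGFP supernatant (sn) received medium of YUMM5.2 Ifnb1eGFP cells, diluted to 1500 pg/mL IFNβ, and BMDM with eGFP sn received medium of YUMM5.2 eGFP cells at the same dilution. YUMM5.2 is a murine melanoma line, here carrying a lentiviral construct that doxycycline (Dox) switches on and that encodes Ifnb1 and eGFP, or eGFP alone. Both kinds of donor cell had spent 72 hours with 1 μg/mL Dox, so that both supernatants could carry other tumor cell products and residual Dox. Whether these products were alike in both supernatants was not tested.

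RIG-I and MDA5, the products of Rigi and Ifih1, are helicases that bind viral or misplaced RNA and signal through MAVS, an adaptor on mitochondria. The enzyme cGAS binds DNA in the cytosol and makes the messenger cGAMP, which activates STING, the product of Sting1, on the endoplasmic reticulum. Both routes end in transcription of type I interferon genes, and signaling from the interferon receptor in turn raises many genes of antiviral defence. Among them are sensors with direct effects on the cell: ZBP1 binds Z-form nucleic acids and can start cell death, PKR (Eif2ak2) blocks translation when it binds duplex RNA, and ADAR1 (Adar) edits adenosines in such RNA.

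In the annotation of GRCm39 the helicase genes lie at chr4:40203772-40239852 (Rigi), chr2:62425714-62476607 (Ifih1), chr11:100585710-100595097 (Dhx58) and chr8:62381109-62491278 (Ddx60). Cgas lies at chr9:78337802-78350535, Zbp1 at chr2:173033815-173060724, Eif2ak2 at chr17:79159972-79190012 and Adar at chr3:89622329-89660753. Mavs lies at chr2:131075442-131096740, and all 10 are protein-coding genes. The start regions of some of them are shown because the interferon-stimulated response element is a short motif with 2 GAAA repeats. RefSeq windows of GRCm38.p6, 300 bases from 250 before to 50 after an annotated start, were given for 7 of the 10 genes and not for Dhx58, Sting1 and Zbp1. The letters GAAA, any 2 bases and GAAA again were searched on both strands. They were found in the windows of Rigi, Ifih1, Eif2ak2 and Ddx60, which are 4 of the 7 genes, and in 3.44% of all 32851 windows or 3.99% of the 27025 genes with a window. The windows of Mavs and Cgas and the 3 windows of Adar held no match. Ddx60 held 2 matches upstream of its start, and the other matches lay just after the start. Capitals mark the match, and each sequence is written 5′ to 3′ on the strand of its gene. In Rigi the letters lie on the opposite strand, where they read GAAATCGAAA.
Rigi, chr4:40239814-40239841, minus strand: cccagcgccctgaggcagTTTCGATTTC
Ifih1, chr2:62646214-62646241, minus strand: agtctggagaagagaatcGAAACAGAAA
Eif2ak2, chr17:78882545-78882572, minus strand: gaaggcggagtccgccggGAAAACGAAA
Ddx60, chr8:61928016-61928086, plus strand: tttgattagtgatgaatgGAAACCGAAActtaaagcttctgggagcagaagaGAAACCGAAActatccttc
The match lay at bases 3 to 12 after the start in Rigi, 33 to 42 in Ifih1 and 19 to 28 in Eif2ak2, counted from 1 at the start, and the pair in Ddx60 spanned bases −53 to −10. These letters are a description of the windows and were not tested against the expression values.

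Library totals ran from 31526034 to 45348457 counts. All 8 macrophage markers were expressed, with summed levels of 14400 to 15600 CPM (counts scaled to the TMM-normalized library size) in untreated BMDM, 18250 to 18800 with eGFP sn, 10500 to 10720 with Ifnb1eGFP sn and 9818 to 9950 with rIFNβ. Lyz2 had group means of 9415 and 12400 CPM without IFNβ (untreated, eGFP sn) and 4111 and 3472 CPM with it (Ifnb1eGFP sn, rIFNβ). Itgam and Cd14 also had lower group means with IFNβ. Adgre1, Csf1r (by little), Cd68, Mertk and Fcgr1 had higher ones, and Fcgr1 was at 52.6 and 83.0 CPM without IFNβ and 1199 and 1155 CPM with it. The M2-like marker Mrc1 was at 660.1 to 825 CPM in the 4 group means, whereas Arg1 was at 0.261 to 0.662 CPM and so close to absent. Of the other listed M2-like markers, Retnla was at 55.2 to 63.4, Clec10a at 6.52 to 10.7 and Mgl2 at 3.32 to 4.87 CPM. Pdcd1lg2 was close to absent at 0.0417 to 0.1435 CPM. Chil3 was at 72.8 and 74.9 CPM without IFNβ (untreated, eGFP sn) and at 128.1 and 115.7 CPM with it (Ifnb1eGFP sn, rIFNβ). The defining melanoma markers Mlana, Pmel, Tyr, Dct and Sox10 were at or below 0.706 CPM in every group mean and Tyrp1 was at 0 in all libraries, while Mitf, which macrophages also express, was at 89.1 to 165.7 CPM. Summed T and NK cell markers reached at most 0.0652 CPM, and those of B cells, plasmacytoid dendritic cells, conventional dendritic cells and mast cells at most 1.19, 3.31, 2.03 and 0.657 CPM. Neutrophil markers summed to 4.28 to 5.72 CPM in untreated BMDM and to 0.208 to 0.985 with rIFNβ. In untreated BMDM this sum was nearly all S100a8, with group means of 5.03 CPM there and 0.272 CPM with rIFNβ. The other listed neutrophil markers were at or below 0.104 CPM in every group mean. Fibroblast markers summed to 30.5 to 84.0 CPM over all libraries. What part cells of these other types had in the values below was not tested, and in bulk RNA fewer cells of a type cannot be told apart from less RNA per cell. Ifnb1 itself had 1 count in all 12 libraries together, in replicate 2 with Ifnb1eGFP sn. Replicate 2 with eGFP sn stood apart from the other libraries without IFNβ in most of the genes described, and the fold changes with Ifnb1eGFP sn against eGFP sn are given with and without it.

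The first question was how the sensors respond to tumoral IFNβ, that is, with Ifnb1eGFP sn against eGFP sn. Of the 10 genes 9 rose, where 30.1% of all genes tested were higher, and Sting1 alone fell, where 25.0% were lower (Benjamini-Hochberg adjusted p of 0.05 or less by edgeR's quasi-likelihood test). The rises ran from 1.13-fold in Mavs to 34.7-fold in Zbp1. The median log2 fold change of the 10 genes was 2.26, against 0.03 over all genes tested. At the study's own thresholds, a log2 fold change of 2 or more in size with an adjusted p no higher than 0.01, 5 of the 10 passed (Zbp1, Ddx60, Rigi, Ifih1 and Dhx58) and all were higher, where 2.77% of all genes were higher. The groups did not overlap in any of the 10 genes, with 9 higher and 1 lower, where 32.4% and 26.6% of all genes lay apart in these directions.

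The same question was asked of rIFNβ against untreated BMDM, a comparison with no library in common with the first. Both comparisons came from 1 fit with a shared estimate of the spread, and whether they shared mice was not given. Again 9 of the 10 genes rose, where 30.7% of all genes were higher, and Sting1 did not pass the test. The rises ran from 1.125-fold in Mavs to 70-fold in Zbp1, and the median log2 fold change was 2.72 against 0.04 over all genes. At the study's thresholds 6 genes passed, the 5 above and Eif2ak2, where 2.99% of all genes were higher. The groups lay apart in 9 of the 10 genes, all higher, where 36.4% of all genes lay apart in that direction, and overlapped in Sting1.

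**Figure D1:**
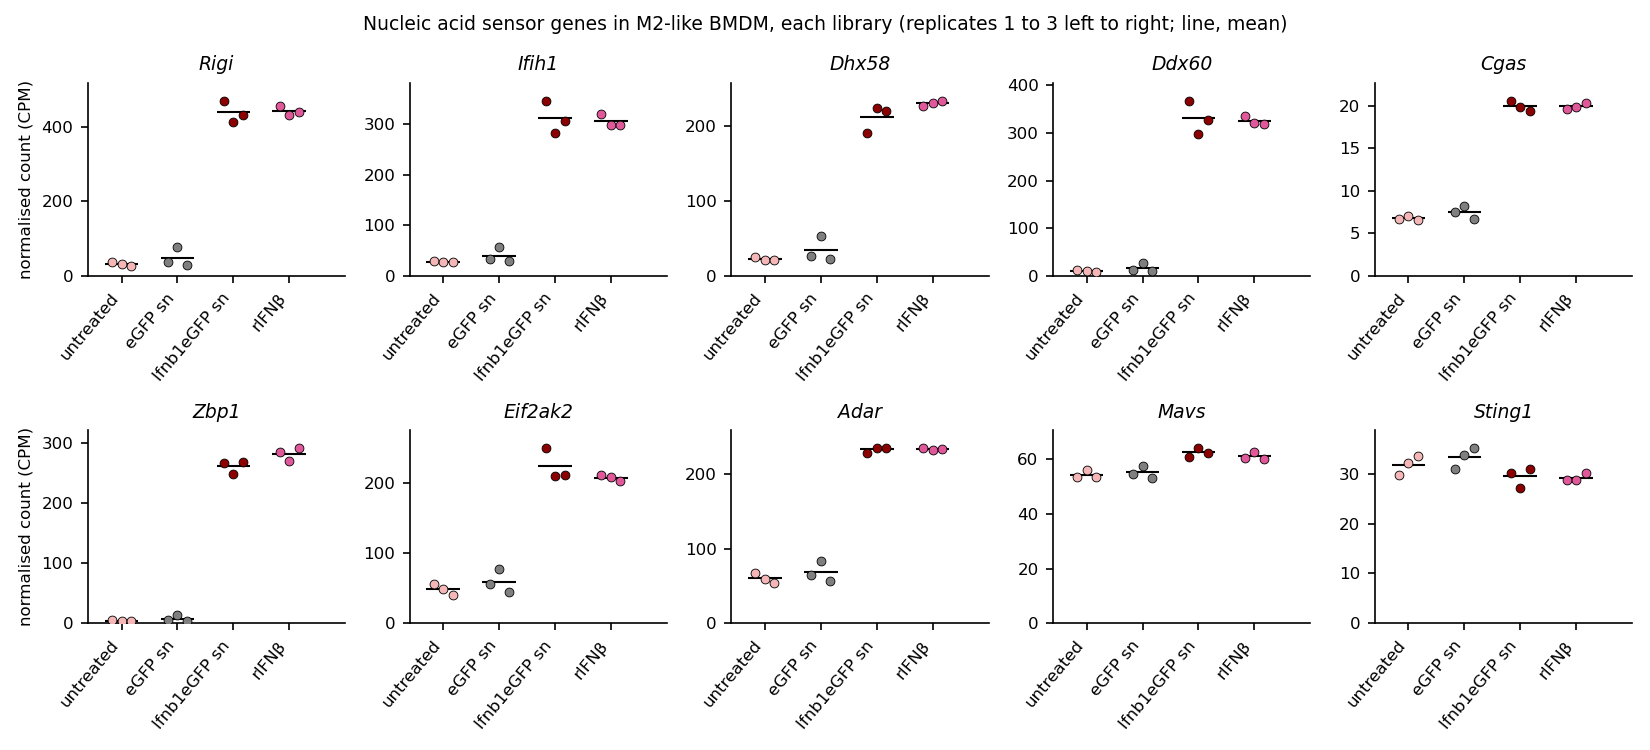
Normalised counts (CPM, linear axes that start at 0) of the 10 genes in each of the 12 M2-like BMDM libraries, as 3 points per condition with a line at the mean. The 6 libraries with IFNβ lie above the 6 without in every gene but Sting1, whose points lie between 27.2 and 35.2 CPM in all conditions.

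Rigi, the helicase that recognizes RNA with 5′ triphosphate ends, was at 38.75, 31.05 and 27.1 CPM in the untreated libraries (replicates 1 to 3) and at 37.8, 78.2 and 29.7 CPM with eGFP sn. With Ifnb1eGFP sn it was at 469.5, 413 and 431 CPM and with rIFNβ at 455, 431 and 439.5 CPM. The libraries with and without IFNβ lay far apart, and replicate 2 with eGFP sn was the highest of those without. The log2 fold change was 3.17 with Ifnb1eGFP sn (standard error 0.295, adjusted p = 3.29e-06 by edgeR's quasi-likelihood test) and 3.78 with rIFNβ (standard error 0.305, adjusted p = 9.26e-07). Without replicate 2 of the eGFP sn group the first value was 3.70.

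Ifih1 encodes MDA5, which binds long RNA duplexes. It was at 30.3, 28.1 and 27.5 CPM in untreated BMDM and at 33.2, 57.1 and 29.7 CPM with eGFP sn. The level was 346, 281 and 305 CPM with Ifnb1eGFP sn and 319, 298.5 and 297 CPM with rIFNβ. The lowest library with IFNβ was thus several times the highest without. Log2 fold changes were 2.96 (standard error 0.202, adjusted p = 2.66e-07) and 3.41 (standard error 0.207, adjusted p = 8.93e-08) by edgeR's quasi-likelihood test, and the first was 3.30 without replicate 2 of the eGFP sn group.

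Dhx58 encodes LGP2, a relative of RIG-I and MDA5 that lacks their signaling domains and modulates them. Its levels were 25.75, 21.6 and 20.75 CPM in untreated BMDM and 27.1, 54 and 22.4 CPM with eGFP sn. They were 190.5, 224 and 219 CPM with Ifnb1eGFP sn and 227, 230.2 and 234 CPM with rIFNβ. All 6 libraries with IFNβ lay above all 6 without, and the rIFNβ libraries lay just above those with Ifnb1eGFP sn. Log2 fold changes were 2.61 (standard error 0.258, adjusted p = 5.31e-06) and 3.35 (standard error 0.268, adjusted p = 8.72e-07) by edgeR's quasi-likelihood test, and the first was 3.09 without replicate 2 of the eGFP sn group. The annotation places an antisense transcript, Dhx58os, over Dhx58, and the strand setting of the counting was not given in the sources used here. Dhx58os had 1 to 3 counts in the untreated libraries and 18 to 46 with Ifnb1eGFP sn, where Dhx58 had 737 counts or more in every library.

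Ddx60, a further helicase that has been placed upstream of RIG-I in antiviral signaling, carried the second largest change. Its libraries were at 11.9, 10.5 and 8.78 CPM in untreated BMDM and 12.4, 28.2 and 11 CPM with eGFP sn. With Ifnb1eGFP sn they were at 367, 297 and 328 CPM and with rIFNβ at 335, 320.3 and 318 CPM. No library without IFNβ came near those with it. The fitted log2 fold changes were 4.26 (95% interval 3.60 to 4.92, adjusted p = 3.47e-07) and 4.97 (4.28 to 5.67, adjusted p = 1.28e-07) by edgeR's quasi-likelihood test. The first was 4.82 without replicate 2 of the eGFP sn group. Among the 4 RNA helicases, Rigi, Ifih1 and Ddx60 held the GAAA repeat in the start regions shown above, and Dhx58 had no window to search.

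Zbp1 had the largest change of the 10 and held ranks 68 and 67 by log2 fold change among the 15033 genes tested in the comparisons with Ifnb1eGFP sn and rIFNβ. It was at 4.83, 3.69 and 3.64 CPM in untreated BMDM and 5, 14.2 and 3.34 CPM with eGFP sn, levels that stood for 126 to 581 counts per library. Its libraries with Ifnb1eGFP sn were at 267, 249 and 268 CPM and those with rIFNβ at 285, 269 and 292 CPM. Relative to its level, the gap between libraries with and without IFNβ was wider than in any other of the 10 genes, and replicate 2 with eGFP sn was again the highest without. The log2 fold change with Ifnb1eGFP sn was 5.12 (95% interval 4.25 to 5.99, adjusted p = 7.25e-07 by edgeR's quasi-likelihood test) and 5.97 without replicate 2 of the eGFP sn group (adjusted p = 1.24e-09 by the same edgeR test), which is the only fold change of the 10 that a left-out library moved by more than 1.5 times. With rIFNβ the log2 fold change was 6.13 (5.19 to 7.06, adjusted p = 2.65e-07 by the same edgeR test).

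Eif2ak2 encodes PKR, the kinase that phosphorylates eIF2α on binding duplex RNA. Its libraries were at 56.3, 49.2 and 40.9 CPM in untreated BMDM and 55.6, 77.5 and 45.32 CPM with eGFP sn. They were at 250.2, 210.1 and 211 CPM with Ifnb1eGFP sn and 211.5, 208 and 203 CPM with rIFNβ. The groups with and without IFNβ lay apart, although less widely than those of the helicases. Log2 fold changes were 1.91 (standard error 0.172, adjusted p = 2.55e-06) and 2.09 (standard error 0.174, adjusted p = 1.22e-06) by edgeR's quasi-likelihood test, on either side of the study's threshold of 2. Each crossed that threshold when 1 library was left out: the first was 2.15 without replicate 2 of the eGFP sn group (adjusted p = 5.01e-07) and the second 1.98 without untreated replicate 3 (adjusted p = 1.23e-05 by edgeR's quasi-likelihood test). Gpatch11, a gene on the opposite strand that overlaps Eif2ak2, was at 13.2 to 17.9 CPM in all libraries.

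Adar, which encodes the editing enzyme ADAR1, was at 67.6, 59.4 and 54.7 CPM in untreated BMDM and 65.6, 83.9 and 56.8 CPM with eGFP sn. It was at 229, 236 and 236 CPM with Ifnb1eGFP sn and 235, 233.5 and 234 CPM with rIFNβ. The 6 libraries with IFNβ were nearly equal and lay well above the others. Log2 fold changes were 1.76 (standard error 0.119, adjusted p = 2.4e-07) and 1.95 (standard error 0.120, adjusted p = 9.98e-08) by edgeR's quasi-likelihood test. The first was 1.93 without replicate 2 of the eGFP sn group, and the second was 2.04 and so past the study's threshold of 2 without untreated replicate 1. ADAR1 is made in a constitutive and an interferon-inducible form from different promoters, and counts per gene do not separate the forms. Chrnb2, which overlaps Adar on the opposite strand, was at 2.1 to 4.5 CPM.

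Cgas, the DNA sensor, rose the least of the sensors proper and had the smallest adjusted p. Its libraries were at 6.71, 7.025 and 6.6 CPM in untreated BMDM and 7.55, 8.24 and 6.73 CPM with eGFP sn. With Ifnb1eGFP sn they were at 20.6, 19.9 and 19.4 CPM and with rIFNβ at 19.7, 19.8 and 20.4 CPM. The spread within each condition was small beside the gap between libraries with and without IFNβ. The log2 fold changes were 1.41 (standard error 0.071, adjusted p = 2.23e-08) and 1.56 (standard error 0.072, adjusted p = 9.72e-09) by edgeR's quasi-likelihood test, and the first was 1.48 without replicate 2 of the eGFP sn group.

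The adaptors of both routes differed from the sensors in the size of their changes. Mavs was at 53.3, 55.8 and 53.3 CPM in untreated BMDM and 54.5, 57.4 and 53.2 CPM with eGFP sn. It was at 60.7, 64 and 62.3 CPM with Ifnb1eGFP sn and 60.4, 62.4 and 59.8 CPM with rIFNβ. The libraries with IFNβ lay above the others by a narrow margin. Its log2 fold changes of 0.18 (standard error 0.042, adjusted p = 0.00372) and 0.17 (standard error 0.042, adjusted p = 0.00511) passed edgeR's quasi-likelihood test and correspond to 1.133-fold and 1.125-fold. The first was 0.21 without replicate 2 of the eGFP sn group. Without the filter on low counts it was 0.16 with an adjusted p of 0.0502 by the same edgeR test.

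Sting1 was at 29.7, 32.1 and 33.6 CPM in untreated BMDM and 31, 33.8 and 35.2 CPM with eGFP sn. Its libraries with Ifnb1eGFP sn were at 30.2, 27.2 and 31 CPM and those with rIFNβ at 28.7, 28.8 and 30.1 CPM. The groups lay just apart for the supernatants and overlapped for rIFNβ and untreated BMDM. The log2 fold change with Ifnb1eGFP sn was -0.18 (95% interval -0.33 to -0.03, adjusted p = 0.0444 by edgeR's quasi-likelihood test). That with rIFNβ was -0.13 (-0.28 to 0.02, adjusted p = 0.141 by the same edgeR test). The call with Ifnb1eGFP sn was lost in 3 of the 6 fits that left out a library of the 2 groups: without replicate 2 of eGFP sn (−0.17, adjusted p = 0.109), without its replicate 3 (−0.14, adjusted p = 0.154) and without replicate 2 of Ifnb1eGFP sn (−0.12, adjusted p = 0.142 by edgeR's quasi-likelihood test).

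**Figure D2:**
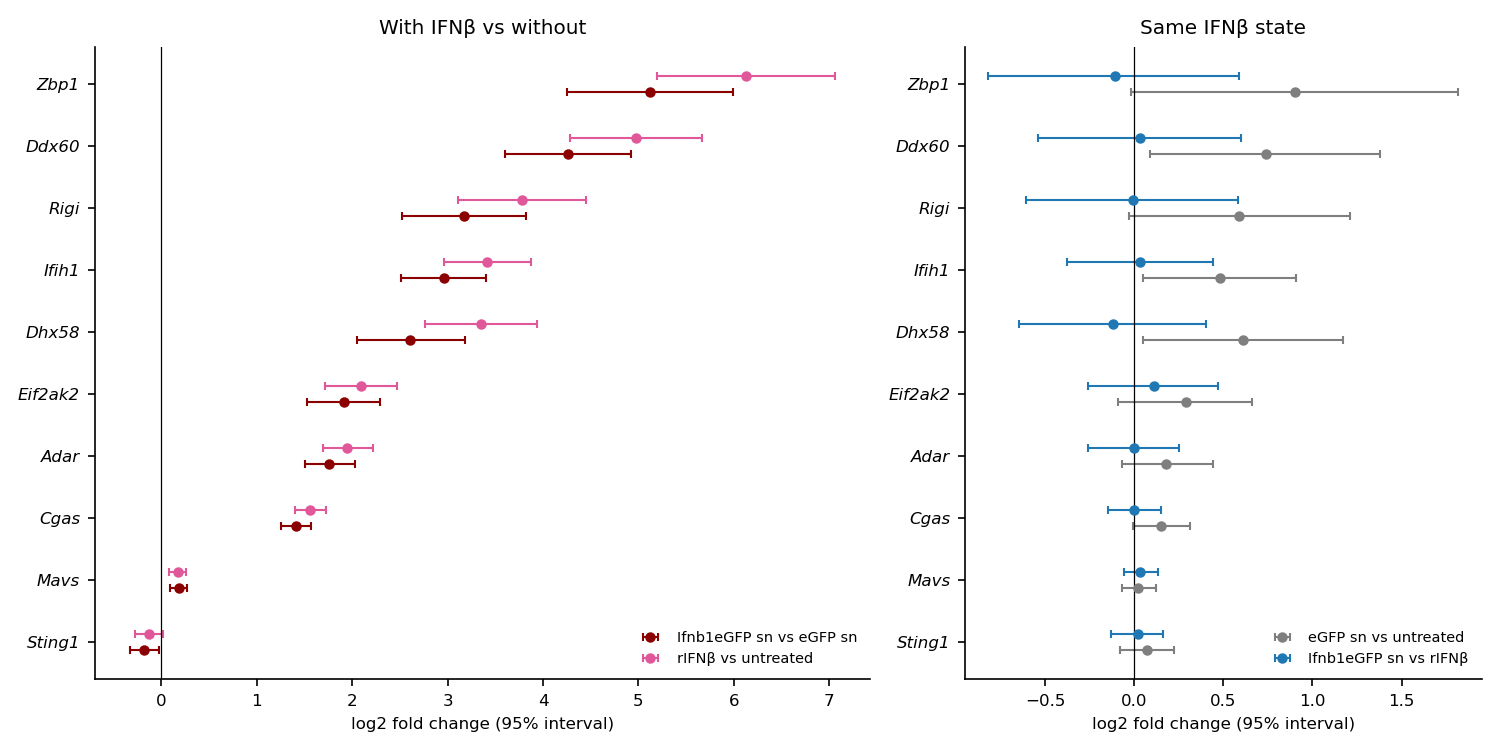
Log2 fold changes of the 10 genes with 95% intervals from edgeR's quasi-likelihood fit, for the comparisons with against without IFNβ (left) and between conditions of the same IFNβ state (right, with a narrower axis). On the left 8 genes lie between 1.41 and 6.13 and Mavs and Sting1 lie near 0, and on the right all values lie between -0.12 and 0.90.

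Levels of different genes were compared as CPM per kilobase of annotated exon. In untreated BMDM the order from high to low was Sting1 (9.98 ± 0.621), Eif2ak2 (8.98 ± 1.42), Adar (7.45 ± 0.806), Dhx58 (6.73 ± 0.795), Mavs (4.76 ± 0.127), Rigi (3.83 ± 0.703), Ifih1 (3.19 ± 0.162), Cgas (1.31 ± 0.0425), Ddx60 (1.20 ± 0.179) and Zbp1 (0.944 ± 0.157; SD, n = 3 each). Neighbours among the first 4, Rigi with Ifih1, and neighbours among the last 3 overlapped in their libraries, whereas Dhx58, Mavs and Rigi lay apart from each other, as did Ifih1 and Cgas. The adaptor Sting1 was thus at or near the top of the order and Zbp1 at or near its end.

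With Ifnb1eGFP sn the order per kilobase was Dhx58 (62.7 ± 5.38), Zbp1 (60.9 ± 2.47), Rigi (51.9 ± 3.41), Eif2ak2 (41.2 ± 4.21), Ddx60 (38.0 ± 4.06), Ifih1 (34.6 ± 3.62), Adar (28.7 ± 0.451), Sting1 (9.24 ± 0.631), Mavs (5.48 ± 0.148) and Cgas (3.84 ± 0.118; SD, n = 3 each). Dhx58 with Zbp1, and Eif2ak2, Ddx60 and Ifih1 as neighbours, overlapped, and all other neighbours lay apart. With rIFNβ the order of the 10 means was the same. Between untreated BMDM and those with Ifnb1eGFP sn, Zbp1 went from place 10 to place 2 and Sting1 from place 1 to place 8. The order at the top depends on the length used: per kilobase of the longest annotated transcript Rigi was first with Ifnb1eGFP sn (87.4 ± 5.75), followed by Dhx58 (85.6 ± 7.35) and Zbp1 (78.6 ± 3.19).

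Summed over the 10 genes, the level per kilobase was 45.0 to 52.05 in the untreated libraries, 47.9 to 80.0 with eGFP sn, 324.4 to 348 with Ifnb1eGFP sn and 337.5 to 347.5 with rIFNβ. Sting1 made up 17.9% to 23.4% of this sum in untreated BMDM and 2.63% to 2.89% with Ifnb1eGFP sn. Mavs made up 9.001% to 10.4% and 1.53% to 1.74%.

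**Figure D3:**
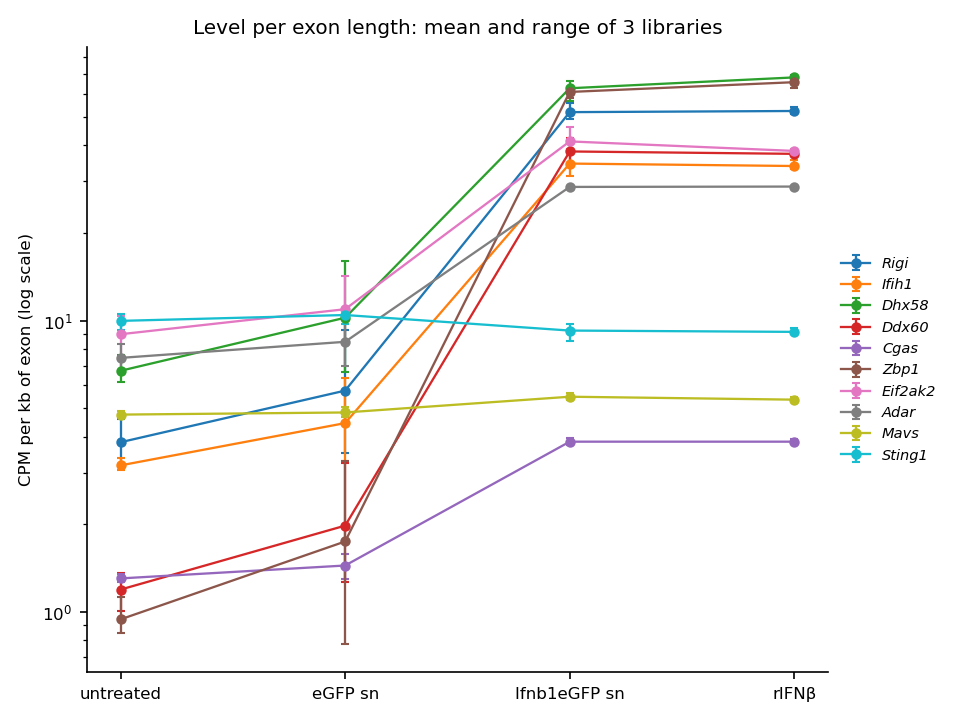
Level per exon length (CPM per kilobase, log axis) of the 10 genes in the 4 conditions, as the mean with the range of 3 libraries, with lines that only join the points of a gene. With IFNβ 7 genes lie between 28.2 and 69.3 CPM per kilobase and Sting1, Mavs and Cgas below 10, whereas the 10 genes are spread between 0.849 and 10.5 in untreated BMDM.

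Whether the source of IFNβ mattered was examined by comparing Ifnb1eGFP sn with rIFNβ. None of the 10 genes passed edgeR's quasi-likelihood test, 0 of them had an unadjusted p below 0.05, and 0.160% of all genes passed and 8.57% had such a p. Log2 fold changes ran from -0.12 in Dhx58 to 0.11 in Eif2ak2. The intervals, which say how large a difference these libraries allow, were narrow for Mavs (-0.06 to 0.13), Sting1 (-0.13 to 0.16) and Cgas (-0.15 to 0.15). They were wider for Adar (-0.26 to 0.25), Eif2ak2 (-0.26 to 0.47) and Ifih1 (-0.38 to 0.44). Ddx60 (-0.54 to 0.60), Rigi (-0.61 to 0.58), Dhx58 (-0.65 to 0.40) and Zbp1 (-0.82 to 0.59) had the widest intervals, and that of Zbp1 runs from 0.568 to 1.51 times its level with rIFNβ. These widths rest on the spread over all 12 libraries, eGFP sn replicate 2 included. Dhx58 and Zbp1 were lower in all 3 Ifnb1eGFP sn libraries than in all 3 rIFNβ libraries, where 4.58% of all genes lay apart in that direction. DESeq2 called 0 of the 10 genes as well.

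The background of the supernatant itself was measured with eGFP sn against untreated BMDM. None of the 10 genes passed edgeR's quasi-likelihood test, where 0.299% of all genes passed, and the groups overlapped in all 10, where 15.5% of all genes lay apart. The 3 genes Ddx60, Ifih1 and Dhx58 had an unadjusted p under 0.05 in the direction of higher levels, where 4.85% of all genes did. The fitted log2 fold changes were all above 0, from 0.02 in Mavs to 0.90 in Zbp1 (95% interval -0.02 to 1.82). Without replicate 2 of eGFP sn they ran from −0.01 in Mavs to 0.18 in Ddx60, and that of Zbp1 was 0.05. DESeq2 called 0 of the 10 genes.

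Replicate 2 with eGFP sn was the highest of the 6 libraries without IFNβ in 9 of the 10 genes, the exception being Sting1, whereas 18.4% of all tested genes were highest in this library. Its level divided by the mean of the other 5 libraries was 3.45 for Zbp1, 2.58 for Ddx60, 2.38 for Rigi, 2.30 for Dhx58 and 1.92 for Ifih1. For Eif2ak2, Adar, Cgas, Mavs and Sting1 the ratio was 1.57, 1.38, 1.19, 1.06 and 1.04. The excess over the other 5 libraries amounted to 3.70% of the mean level with IFNβ for Zbp1 and 13.8% for Dhx58, with the other genes between. The reason for the higher levels in this library was not tested.

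**Figure D4:**
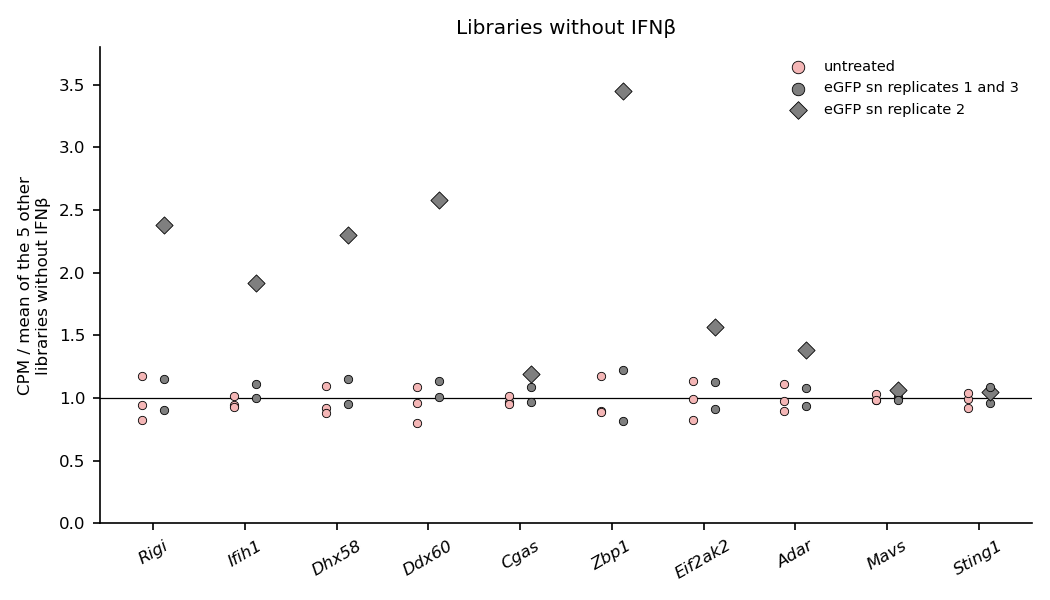
Level of each gene in the 6 libraries without IFNβ, divided by the mean of the 5 libraries other than eGFP sn replicate 2 (linear axis from 0, line at 1). That replicate, drawn as a diamond, reaches 3.45 in Zbp1 and lies above all others in 9 of the 10 genes, while the other libraries stay close to 1.

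An interaction term compared the IFNβ effect in supernatant with that in plain medium. Of the 10 genes 0 passed edgeR's quasi-likelihood test, as did 0.00% of all genes, and 4.40% of all genes but none of the 10 had an unadjusted p below 0.05. Interaction values were lowest in Zbp1 (-1.01, 95% interval -2.17 to 0.15), Dhx58 (-0.73, -1.50 to 0.04) and Ddx60 (-0.71, -1.57 to 0.15). Without replicate 2 of eGFP sn they were −0.16, −0.25 and −0.15. For Mavs the interaction was 0.01 (-0.12 to 0.14). DESeq2 also called 0 of the 10.

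The surrounding pathways were read from lists of genes other than the 10. Of 25 listed genes of RNA sensing signaling 24 were tested, and with Ifnb1eGFP sn 15 were higher (62.5%, against 30.1% of all genes tested), 4 lower (16.7%, against 25.0%) and 5 did not pass, with a median log2 fold change of 0.23 against 0.03 over all genes. With rIFNβ 13 were higher (54.2%, against 30.7%) and 4 lower (16.7%, against 24.6%), with a median of 0.29 against 0.04. This split moved with the processing. With Ifnb1eGFP sn 12 were higher and 4 lower under DESeq2 and under RLE factors, and 11 and 4 without the filter on low counts. With rIFNβ 12 were higher and 7 lower under DESeq2 and under RLE factors. The shares over all genes under these alternatives are not given here. Azi2, which binds the kinase TBK1, rose (1.02, adjusted p = 6.09e-08, and 1.08 with rIFNβ). The ubiquitin ligases Rnf135 (1.38, adjusted p = 8.13e-08, and 1.64) and Trim25 (1.34, adjusted p = 4.88e-07, and 1.53), which both act on RIG-I, rose as well by edgeR's quasi-likelihood test. The helicase Ddx3x (-0.62, adjusted p = 6.38e-07, and -0.72), the adaptor Traf5 (-0.85, adjusted p = 4.62e-06, and -0.82) and the stress granule protein G3bp1 (-0.27, adjusted p = 0.000771, and -0.27) fell by the same edgeR test.

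Of 22 listed genes that act on cytosolic DNA, cGAMP or STING 21 were tested. With Ifnb1eGFP sn 7 were higher (33.3%), 5 lower (23.8%) and 9 did not pass, with a median of −0.04, and with rIFNβ 7 were higher (33.3%) and 6 lower (28.6%), with a median of 0.01. These shares lie near the 30.1% and 25.0% of all genes tested with Ifnb1eGFP sn and the 30.7% and 24.6% with rIFNβ. Samhd1, which degrades dNTPs (1.67, adjusted p = 5.41e-09, and 1.62 with rIFNβ), the cGAMP-degrading enzyme Smpdl3a (1.21, adjusted p = 4.22e-08, and 1.34) and Stim1, which holds STING at the endoplasmic reticulum (0.42, adjusted p = 3.61e-06, and 0.44), rose by edgeR's quasi-likelihood test. The cGAMP exporter Abcc1 (-0.90, adjusted p = 3.8e-08, and -1.03), the cGAMP hydrolase Enpp1 (-0.97, adjusted p = 4.15e-05, and -0.85) and the lysosomal nuclease Dnase2a (-0.56, adjusted p = 7.99e-05, and -0.59) fell by the same edgeR test. Smpdl3a and Enpp1, which both break down cGAMP, thus went in opposite directions.

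All 19 listed partners of ZBP1, PKR and ADAR1 were tested, and 7 were higher (36.8%), 5 lower (26.3%) and 7 did not pass with either source of IFNβ, with medians of 0.00 and 0.08. These shares too lie near those of all genes tested. The necroptosis effector Mlkl (1.88, adjusted p = 6.3e-09, and 2.00 with rIFNβ), the protease Casp8 (1.04, adjusted p = 8.91e-09, and 1.11) and the kinase Ripk1 (0.43, adjusted p = 9.14e-06, and 0.37) rose by edgeR's quasi-likelihood test. Of the other eIF2α kinases, Eif2ak3 (-0.79, adjusted p = 1.93e-07, and -0.86) and Eif2ak4 (-0.48, adjusted p = 5.54e-05, and -0.48) fell by the same test, in the direction opposite to Eif2ak2. So did Adarb1, which encodes the editing enzyme ADAR2, opposite to Adar (-1.58, adjusted p = 2.45e-05 by edgeR's quasi-likelihood test, and -1.39 with rIFNβ). Ripk3, the kinase that ZBP1 engages, did not pass (-0.17, adjusted p = 0.0706 by edgeR's quasi-likelihood test) and is named here after its value was seen. The same holds for the eIF2α kinase Eif2ak1 (0.06, adjusted p = 0.386 by the same edgeR test, and 0.08 with rIFNβ). In the comparison of both IFNβ sources and in that of eGFP sn with untreated BMDM 0 genes of the 3 lists passed the test.

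**Figure D5:**
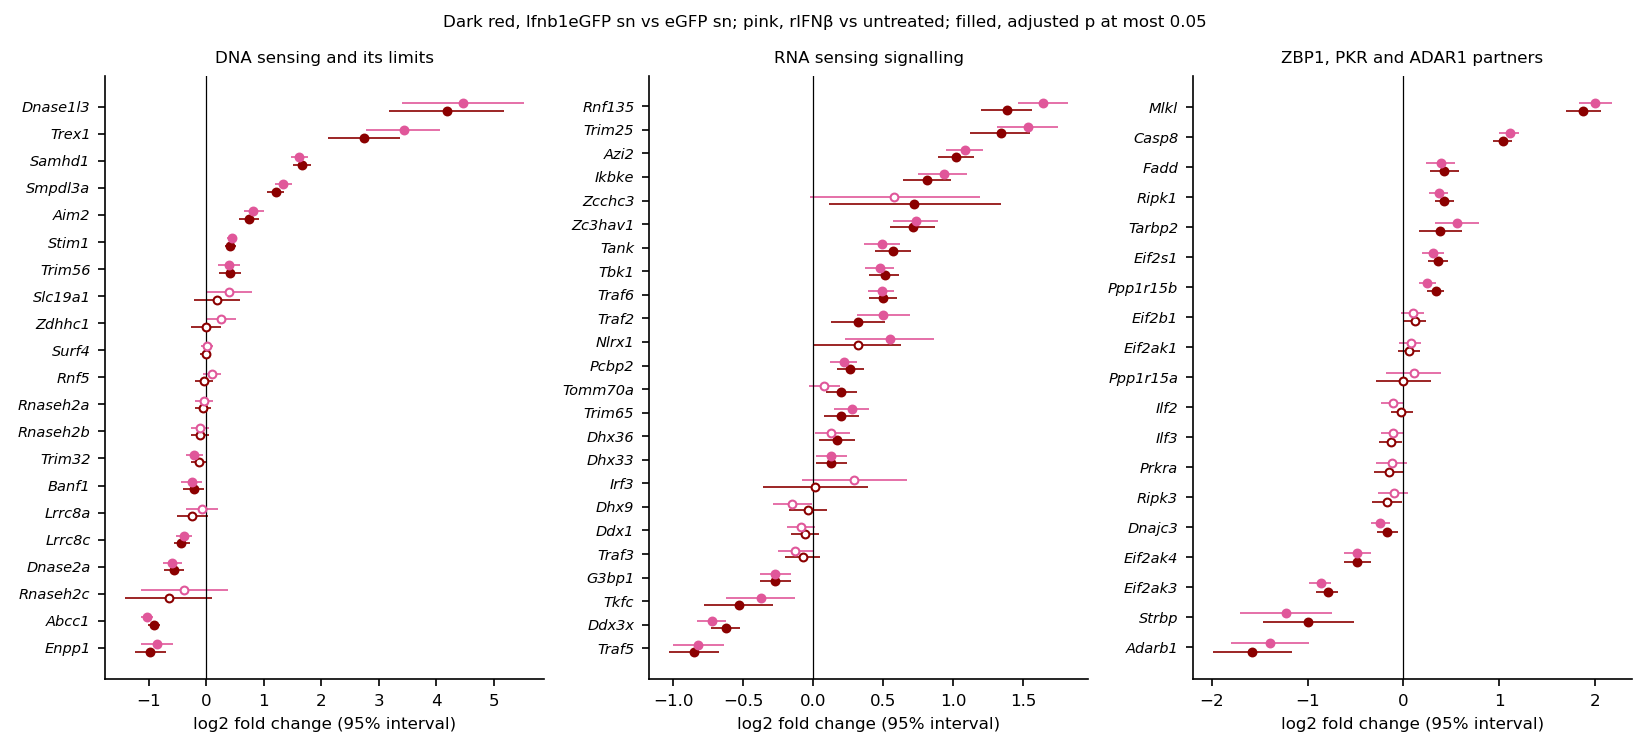
Log2 fold changes with 95% intervals of the tested genes of the 3 lists (21, 24 and 19 genes from left to right), with Ifnb1eGFP sn against eGFP sn in dark red and rIFNβ against untreated BMDM in pink, each panel on its own axis. Filled points passed edgeR's quasi-likelihood test, and the values spread on both sides of 0 in all 3 panels.

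Across the 12 libraries, the log2 CPM of each gene was compared with the mean standardised profile of the 10 genes. Pearson's r was 0.991 to 0.997 for Rigi, Ifih1, Dhx58, Ddx60, Cgas, Zbp1, Eif2ak2 and Adar, 0.949 for Mavs and −0.645 for Sting1, each of which is part of that mean. The 5 other genes with the highest r were Or2v1 (0.9991), Slfn3 (0.9983), Ifi47 (0.9980), Trim30a (0.9978) and Sp100 (0.9975). Or2v1 overlaps Ifi47 on the same strand in the annotation, so the counts of this pair are uncertain. These r values mostly restate the difference between 6 libraries with and 6 without IFNβ and are given as a description.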

How the data were processed

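RNA of M2-like BMDM was measured by bulk RNA sequencing (TruSeq Stranded Total RNA) in 12 libraries, 3 for each condition. The authors aligned and counted reads (RSEM, version 1.3.3), and deposited expected counts per Ensembl gene without normalization. Their methods name the build as GRCm39 mm10, which are 2 builds. Symbols and positions came from GENCODE M39 (GRCm39), which named 56017 of 56748 genes, and promoter windows from RefSeq (GRCm38.p6). Protein sequences were not used here.

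Expected counts were rounded, since 12% of all values and 25% of those of the 10 genes were not whole. Library totals ran from 31526034 to 45348457, and libraries of a condition differed by more than counting error (chi-square per degree of freedom 5.34 to 54.0). The highest value was that of replicates 1 and 2 with Ifnb1eGFP sn. The 15033 genes that filterByExpr kept were TMM-scaled and fitted with edgeR 4.0.16 (R 4.3.3) in 1 quasi-likelihood model over all 12 libraries, with 8 residual degrees of freedom from the 4 condition means. Adjusted p values are Benjamini-Hochberg values over all genes tested, and a gene was called at 0.05 or below. Standard errors are the log2 fold change divided by the root of F, and intervals cover 95%. An exact permutation test of 3 libraries against 3 cannot give a p below 0.1, so none was used for single genes. They were tested in this model and in the alternatives named below. Fold changes use edgeR's fitted values, and correlations used log2 CPM with a prior count of 2. Scripts were tested on simulated data.

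The 10 genes and the pathway and marker lists were chosen with earlier results of these data known. Besides the 10 genes, the text names the 3 genes with the smallest adjusted p in each direction of each pathway list for Ifnb1eGFP sn against eGFP sn, Ifnb1, and the 5 genes most like the 10 in profile. Alternatives were DESeq2 1.42.0, RLE factors, all genes without the filter on low counts, a block for the replicate number, only the compared conditions in the fit, the study's thresholds, each library left out in turn, and for levels per length the longest transcript or library totals.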

Additional observations from a re-analysis of the deposited data

How the results depend on the processing

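Every log2 fold change of the 10 genes that passed the test kept its direction under all alternatives run. The number of called genes among the 10 with Ifnb1eGFP sn against eGFP sn was 10 with DESeq2 and with RLE factors, 8 without the filter on low counts, 9 to 10 with a library left out, and 5 at the study's thresholds. With rIFNβ against untreated BMDM it was 9 with DESeq2, RLE factors, no filter and each library left out, and 6 at the study's thresholds. Apart from the study's thresholds, which Eif2ak2, Adar and Cgas also missed with Ifnb1eGFP sn and Adar and Cgas with rIFNβ, the calls that changed were those of the adaptors. Without the filter, Mavs (0.16, adjusted p = 0.0502) and Sting1 (−0.20, adjusted p = 0.0655 by edgeR's quasi-likelihood test) were not called with Ifnb1eGFP sn. When the fit held the compared conditions alone, Sting1 was not called with Ifnb1eGFP sn (−0.18, adjusted p = 0.0988) and was called with rIFNβ (−0.16, adjusted p = 0.0331 by edgeR's quasi-likelihood test). The cause of these changes was not tested. In the 3 remaining comparisons 0 of the 10 genes were called under any alternative. The median over all genes tested moved by at most 0.04 on the log2 scale under DESeq2 or RLE factors. The mean summed level per kilobase with Ifnb1eGFP sn was 466 with longest transcripts in place of exon unions. Called genes in the pathway lists with a library left out numbered 16 to 19 (RNA sensing), 11 to 15 (DNA sensing) and 12 to 13 (partners) with Ifnb1eGFP sn, and 15 to 17, 11 to 13 and 12 to 13 with rIFNβ.

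Libraries with the same replicate number share only that number in the labels. Their deviations from the condition means correlated at 0.0582 to 0.252 over 18 pairs, of which 13 were over 0.1, and at −0.318 to 0.147 over 36 pairs with different numbers. Deviations within a condition sum to 0, so these ranges and the count that follows are not independent of each other. All 12 libraries correlated best with one of their own number, a hint from the data and not from the design. A replicate block changed no number of called genes among the 10: 10 of the 10 genes were called with Ifnb1eGFP sn, 9 with rIFNβ and 0 in each of the remaining comparisons. The lowest count of the 10 genes in any library was 126, and the share of depth in the width of the intervals was not tested.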

Other observations

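Some genes of the pathway lists outside the rule for naming are given here after their values were seen. Trex1, the exonuclease that removes cytosolic DNA before cGAS binds it, was at 16.2 ± 1.59 CPM in untreated BMDM, 20.9 ± 9.49 with eGFP sn, 139.8 ± 38.8 with Ifnb1eGFP sn and 173.6 ± 11.9 with rIFNβ (SD, n = 3 each). It rose by 2.74 on the log2 scale with Ifnb1eGFP sn (adjusted p = 7.61e-06 by edgeR's quasi-likelihood test) and 3.43 with rIFNβ (adjusted p = 1.48e-06 by the same edgeR test), so that this negative regulator rose by more than Cgas in both comparisons. Dnase1l3, a secreted nuclease, was at 0.0725 ± 0.0804 CPM in untreated BMDM and at 1.52 ± 0.165 with rIFNβ (SD, n = 3 each), a rise of 4.47 on the log2 scale (adjusted p = 1.09e-05 by edgeR's quasi-likelihood test) from a level close to absent.

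The kinases that MAVS and STING share rose: Tbk1 by 0.51 and Ikbke by 0.81 on the log2 scale with Ifnb1eGFP sn (adjusted p = 4.6e-06 and 4.26e-06 by edgeR's quasi-likelihood test), and by 0.48 and 0.93 with rIFNβ. For Irf3, the transcription factor they activate, the log2 fold change was 0.01 with Ifnb1eGFP sn (95% interval −0.36 to 0.39) and 0.29 with rIFNβ (−0.08 to 0.67), and neither passed the test.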
